A study of Mus musculus with 2 samples.

Results

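The COMPASS H3K4 methyltransferase genes are the 10 genes Kmt2a, Kmt2b, Kmt2c, Kmt2d, Setd1a, Setd1b, Wdr5, Ash2l, Rbbp5 and Dpy30. They were chosen by name, without use of a measured value, but with earlier results of these data known. They are 10 of the 21502 protein-coding genes analysed here. The data are lists of regions enriched for histone H3 trimethylated at lysine 4 (H3K4me3), found by chromatin immunoprecipitation and sequencing (ChIP-seq) of E14TG2a.4 cells. E14TG2a.4 is a mouse embryonic stem cell line, labelled male, of strain 129/Ola, of the embryonic stage at 3.5 days. There was 1 group, with no treatment or genetic change named in the labels, and it held 2 biological replicates that the labels trace to the same donor. The replicates therefore sample 1 line, and no difference between conditions can be tested.

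COMPASS complexes place methyl groups on lysine 4 of histone H3, and the trimethylated form gathers around active and poised promoters. Each complex is built on 1 catalytic subunit with a SET domain. KMT2A and KMT2B form one pair of such enzymes, KMT2C and KMT2D another, and SETD1A and SETD1B the last. All of them work with the same core of WDR5, RBBP5, ASH2L and DPY30, which raises the activity of the SET domain. SETD1A and SETD1B are known for much of the trimethylation of H3K4 in mammalian cells, KMT2B for trimethylation at developmental promoters in stem cells, and KMT2C and KMT2D for monomethylation at enhancers. The values below describe the mark at the genes that encode these proteins, not the amount or activity of the proteins.

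RefSeq promoter sequences, on build GRCm38.p6, were found for 7 of the 10 members and are named only for the others, Kmt2b, Setd1b and Ash2l. Each sequence runs from 250 bases before to 50 bases after an annotated start, on the strand of the gene. The sequences below are shown because the results turn on them: the member with the strongest mark (Kmt2c), a marked and an unmarked start of Dpy30, the marked start of Kmt2d inside the annotated gene, the strongest core gene (Wdr5) and a catalytic gene with a weaker mark (Setd1a). Lower case is used throughout except that each CG dinucleotide is in capitals.
Kmt2c, chr5:25498734-25499033, minus strand: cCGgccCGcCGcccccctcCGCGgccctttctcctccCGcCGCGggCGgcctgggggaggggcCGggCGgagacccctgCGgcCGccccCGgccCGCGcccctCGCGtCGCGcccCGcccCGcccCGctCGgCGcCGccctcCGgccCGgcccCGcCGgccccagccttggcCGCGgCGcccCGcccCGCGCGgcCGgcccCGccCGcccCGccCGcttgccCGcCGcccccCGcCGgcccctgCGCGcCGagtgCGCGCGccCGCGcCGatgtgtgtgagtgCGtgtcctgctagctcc
Kmt2d, chr15:98871156-98871455, minus strand: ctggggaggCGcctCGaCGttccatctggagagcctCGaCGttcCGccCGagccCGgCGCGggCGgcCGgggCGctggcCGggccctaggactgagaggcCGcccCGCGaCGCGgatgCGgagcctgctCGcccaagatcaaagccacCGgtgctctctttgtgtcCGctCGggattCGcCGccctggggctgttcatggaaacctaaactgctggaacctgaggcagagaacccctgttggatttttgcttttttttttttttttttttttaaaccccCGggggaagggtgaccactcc
Setd1a, chr7:127777139-127777438, plus strand: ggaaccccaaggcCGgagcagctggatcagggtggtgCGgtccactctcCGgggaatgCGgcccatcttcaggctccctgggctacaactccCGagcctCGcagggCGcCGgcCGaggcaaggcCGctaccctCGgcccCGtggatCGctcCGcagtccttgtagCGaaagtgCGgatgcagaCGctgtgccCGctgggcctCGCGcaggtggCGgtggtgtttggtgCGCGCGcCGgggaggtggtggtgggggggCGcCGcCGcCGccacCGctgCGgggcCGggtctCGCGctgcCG
Wdr5, chr2:27514897-27515196, plus strand: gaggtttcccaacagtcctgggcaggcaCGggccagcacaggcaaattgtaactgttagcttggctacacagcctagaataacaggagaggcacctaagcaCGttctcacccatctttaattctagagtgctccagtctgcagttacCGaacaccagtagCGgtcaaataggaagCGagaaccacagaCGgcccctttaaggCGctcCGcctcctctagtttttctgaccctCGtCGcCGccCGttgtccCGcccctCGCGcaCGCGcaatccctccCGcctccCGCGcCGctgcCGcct
Dpy30, inner start, chr17:74316345-74316644, minus strand: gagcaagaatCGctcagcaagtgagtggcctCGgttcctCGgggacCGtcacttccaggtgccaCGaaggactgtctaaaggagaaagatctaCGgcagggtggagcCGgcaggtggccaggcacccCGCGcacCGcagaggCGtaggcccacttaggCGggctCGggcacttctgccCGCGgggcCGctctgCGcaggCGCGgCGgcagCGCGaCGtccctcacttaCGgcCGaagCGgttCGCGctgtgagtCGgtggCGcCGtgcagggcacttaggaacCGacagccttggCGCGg
Dpy30, 5′ end of the gene, chr17:74323895-74324194, minus strand: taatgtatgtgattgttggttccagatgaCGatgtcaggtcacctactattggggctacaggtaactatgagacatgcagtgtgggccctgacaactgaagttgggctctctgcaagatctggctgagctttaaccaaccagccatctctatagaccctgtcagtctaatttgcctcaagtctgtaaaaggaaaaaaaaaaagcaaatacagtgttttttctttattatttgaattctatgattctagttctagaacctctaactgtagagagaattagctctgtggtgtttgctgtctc
The Kmt2c sequence holds 56 CG dinucleotides, the inner start of Dpy30 holds 34, and the 5′ end of Dpy30 holds 1.

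On mm10 the authors' replicated list held 62128 peaks, and the lists of replicate 1 and replicate 2 held 86781 and 83750. The sequencing depth behind the lists is unknown, and where a promoter has no peak, nothing there passed the authors' threshold. The labelled cell type was checked against marker genes. Of 8 stem cell markers, 7 had a peak at the 5′ end of the gene in the replicated list, with signal values of 37.7 to 69.4. Esrrb had one at another RefSeq start there, and at its 5′ end a weak peak of 2.85 in replicate 2 alone. Of 7 fibroblast markers, which feeder cells would carry, 4 had a peak, with signal values of 13.7 to 23.4, and Col3a1, S100a4 and Postn had none. Of 6 markers of differentiated lineages, 5 had a peak, with values of 6.76 to 23.9, and Gata4 had none. The lowest, Pax6, had 11.1 at another RefSeq start. In the pooled list on build mm9, Gata4 had a region near an annotated start, while none was counted for Nanog and Sox1.

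Nearly all members carried H3K4me3 at the promoter. In the replicated list a peak lay within 1 kb of the 5′ end of 9 of the 10 members, beside 66.6% of all genes analysed. The count was 9 of 10 in replicate 1, where 66.9% of all genes were marked, and 8 of 10 in replicate 2, where 66.8% were. All 6 catalytic genes and 3 of the 4 core genes were marked in the replicated list. The exceptions, Dpy30 in every list and Kmt2d in replicate 2, had peaks at starts that RefSeq places inside the annotated gene. With the 5′ end or any RefSeq start counted, all 10 members were marked in each of the 3 lists, beside 69.4% of all genes in the replicated list. In the separate lists on build mm9, all 10 members had a region within 1 kb of a GENCODE vM1 start, beside 68.8% of all genes. That share counts genes without a vM1 start as unmarked. It is thus lower than the share among the 20408 genes with one, as every member has. Most protein-coding genes are marked in these cells, so a count of 10 is only moderately above that share. A weaker mark may stand for fewer cells that carry it or for less of it per cell, and these cannot be told apart in bulk data.

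The signal value is the authors' enrichment of a peak, a linear ratio, and a member's value is that of its strongest peak within 1 kb of the start. The median was 43.0 over the 14314 genes marked at the 5′ end in the replicated list, with quartiles of 23.4 and 57.7. The medians over marked genes were lower in the single replicates, 38.4 in replicate 1 and 36.5 in replicate 2. Each value is therefore read against the other genes of its own list.

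Kmt2a and Kmt2b, which encode the MLL1 and MLL2 enzymes that work with menin, were both strongly marked. The promoter signal of Kmt2a was 62.4 in replicate 1 and 56.0 in replicate 2, a mean of 59.2 ± 4.55 (SD, n = 2). Kmt2b had 57.3 and 57.0, a mean of 57.1 ± 0.187 (SD, n = 2). Replicated values were 67.6 for Kmt2a and 64.4 for Kmt2b, higher than at 91.2% and 86.9% of marked genes. The replicate ranges of this pair lay close together without a clear order, since 1 replicate of Kmt2a was above both values of Kmt2b and the other below.

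Kmt2c and Kmt2d, which encode the MLL3 and MLL4 enzymes known from enhancers, had the highest means among the catalytic genes. Kmt2c gave 62.4 in replicate 1 and 69.2 in replicate 2, a mean of 65.8 ± 4.79 (SD, n = 2). Kmt2d, read at its inner RefSeq start, gave 58.7 and 65.5, a mean of 62.1 ± 4.82 (SD, n = 2). Both were higher in replicate 2, and their replicate ranges overlapped. In the replicated list Kmt2c had 72.3 and Kmt2d 70.2, above 96.2% and 93.9% of marked genes.

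The SETD1 genes, whose products carry CXXC1 and WDR82 as partners, stood lower. Setd1a had a signal of 31.9 in replicate 1 and 43.4 in replicate 2, a mean of 37.7 ± 8.12 (SD, n = 2). Setd1b had 24.2 and 20.9, a mean of 22.6 ± 2.35 (SD, n = 2). Their replicated values were 40.6 and 27.2, above 46.6% and 29.2% of marked genes, so both were below the median of that list. In replicate 2 Setd1a was above the median, at a rank over 62.2% of marked genes, and in replicate 1 it was below, over 39.7%. In each of the 3 mm10 lists the lowest of the 4 KMT2 genes was above the higher of the 2 SETD1 genes: the replicated values were 64.4 to 72.3 against 27.2 to 40.6. This split by family was noticed after the values were seen, was not tested and did not hold in the mm9 lists described further on.

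The core genes included strongly and moderately marked promoters. Wdr5, whose product is the WD40 protein that contacts both the enzyme and the histone tail, had signals of 60.8 and 62.1 in the replicates, a mean of 61.4 ± 0.904 (SD, n = 2). Rbbp5, whose product forms the activating pair with ASH2L, had 46.1 and 55.7, a mean of 50.9 ± 6.81 (SD, n = 2). Ash2l had 29.6 and 38.1, a mean of 33.8 ± 5.98 (SD, n = 2). Dpy30, which encodes a small protein that binds ASH2L as a dimer, had 55.5 and 51.6 at its inner starts, a mean of 53.6 ± 2.82 (SD, n = 2). In the replicated list Wdr5 had 71.7, Dpy30 61.0, Rbbp5 57.0 and Ash2l 38.2. Only Ash2l was below the median of marked genes in that list, at a rank above 43.3% of them, while Wdr5 was above 95.6%. Ash2l was also below the median in replicate 1, over 36.3% of marked genes, but slightly above it in replicate 2, over 52.3%. Unlike Kmt2d and Dpy30, Ash2l had no RefSeq start to add and was read at its 5′ end only. Its inner peak, described further on, had 45.3 in the replicated list, 39.9 in replicate 1 and 40.2 in replicate 2. Those values were above the medians of marked genes in the same lists, 43.0, 38.4 and 36.5.

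For an order by the mean of the replicates, Kmt2d and Dpy30 were read at inner starts and Ash2l at its 5′ end. The members ran from Kmt2c through Kmt2d, Wdr5, Kmt2a and Kmt2b to Dpy30 and Rbbp5, then Setd1a and Ash2l, and last Setd1b. The last of these 4 steps holds Setd1b alone. In the others, members next to each other had overlapping replicate ranges, so the order of such neighbours is not resolved. Members further apart in the first step did not all overlap. Both values of Kmt2c, Kmt2d and Wdr5 were above both of Kmt2b, and both of Kmt2c were above both of Wdr5. The ranges were apart between Kmt2b and Dpy30, between Rbbp5 and Setd1a, and between Ash2l and Setd1b. The largest relative difference between replicates was at Setd1a, with a log2 ratio of replicate 2 over replicate 1 of 0.44, followed by Ash2l with 0.36. Over the 14186 genes marked in both replicates this ratio had a median of −0.05, and 5% to 95% of genes lay between −0.46 and 0.25. Setd1a, Ash2l and also Rbbp5, at 0.27, were thus above the upper of these bounds.

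**Figure D1:**
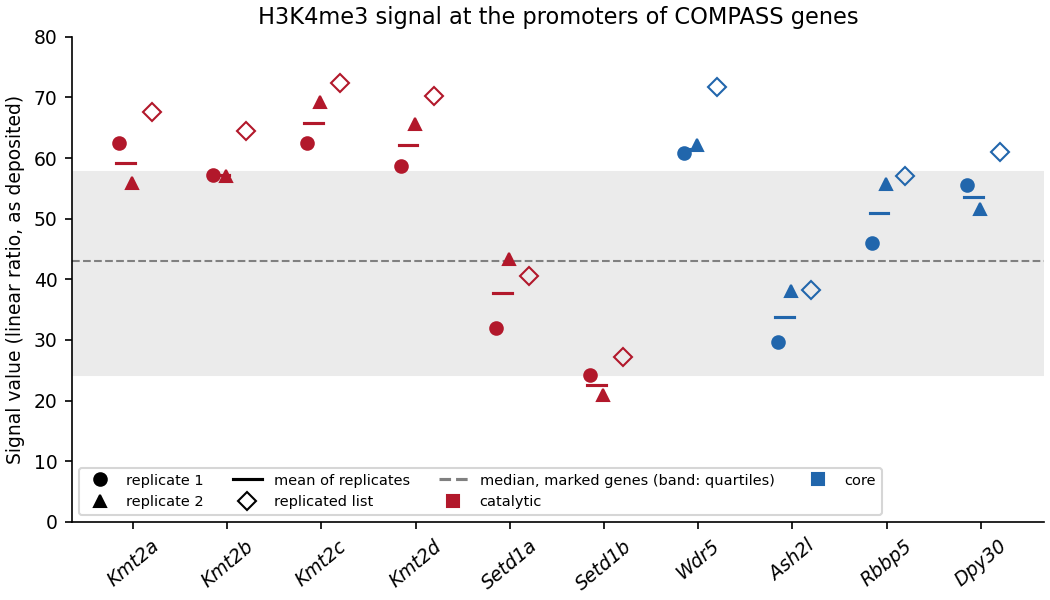
Promoter H3K4me3 signal (y axis, linear ratio as deposited) of the 10 members (x axis; Kmt2d and Dpy30 at their inner starts) in replicate 1 (circles), replicate 2 (triangles), their mean (bars) and the replicated list (diamonds), catalytic genes in red and core genes in blue. The dashed line and band are the median, 43.1, and quartiles, 24.2 and 57.7, of all genes marked at any start in the replicated list. Setd1a, Setd1b and Ash2l, the last read at its 5′ end only, have replicated values below the line.

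The catalytic and core genes overlapped in signal in every list. The median was 66.0 over the 6 catalytic genes in the replicated list and 57.0 over the 3 core genes marked at the 5′ end. With Dpy30 at its inner starts and Ash2l still at its 5′ end, the core median was 59.0 over 4 genes. The replicate 1 medians were 58.0 and 50.8, and those of replicate 2 were 56.5 and 53.6, with all starts counted. The catalytic median was higher each time, but the ranges overlapped, from 27.2 to 72.3 and from 38.2 to 71.7 in the replicated list.

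The extent and position of the mark were examined next. Adjacent peaks with a gap under 1 kb were merged into 1 domain, and positions are given relative to the 5′ end of the gene in the direction of transcription, negative upstream. The median domain over all marked genes was 2427 bp wide in the replicated list, with an upper quartile of 3610 bp and a 95th percentile of 7807.1 bp. Of the 10 members, Setd1b, Rbbp5, Kmt2b and Ash2l were above the 95th percentile in that list, and Setd1a was the only one below the upper quartile. For Rbbp5 the place above the 95th percentile did not hold in replicate 1, where its 5249 bp were wider than at 88.7% of marked genes. In the pooled mm10 list Kmt2b and Ash2l were just short of it, wider than at 94.4% and 93.7%. In the pooled mm9 list Kmt2b, Rbbp5 and Ash2l were also short of it, at 94.5%, 93.9% and 90.7%, while Setd1b was at 99.1%. In replicate 2 Dpy30, with 3071 bp, was also below the upper quartile of that list, 3499 bp.

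**Figure D2:**
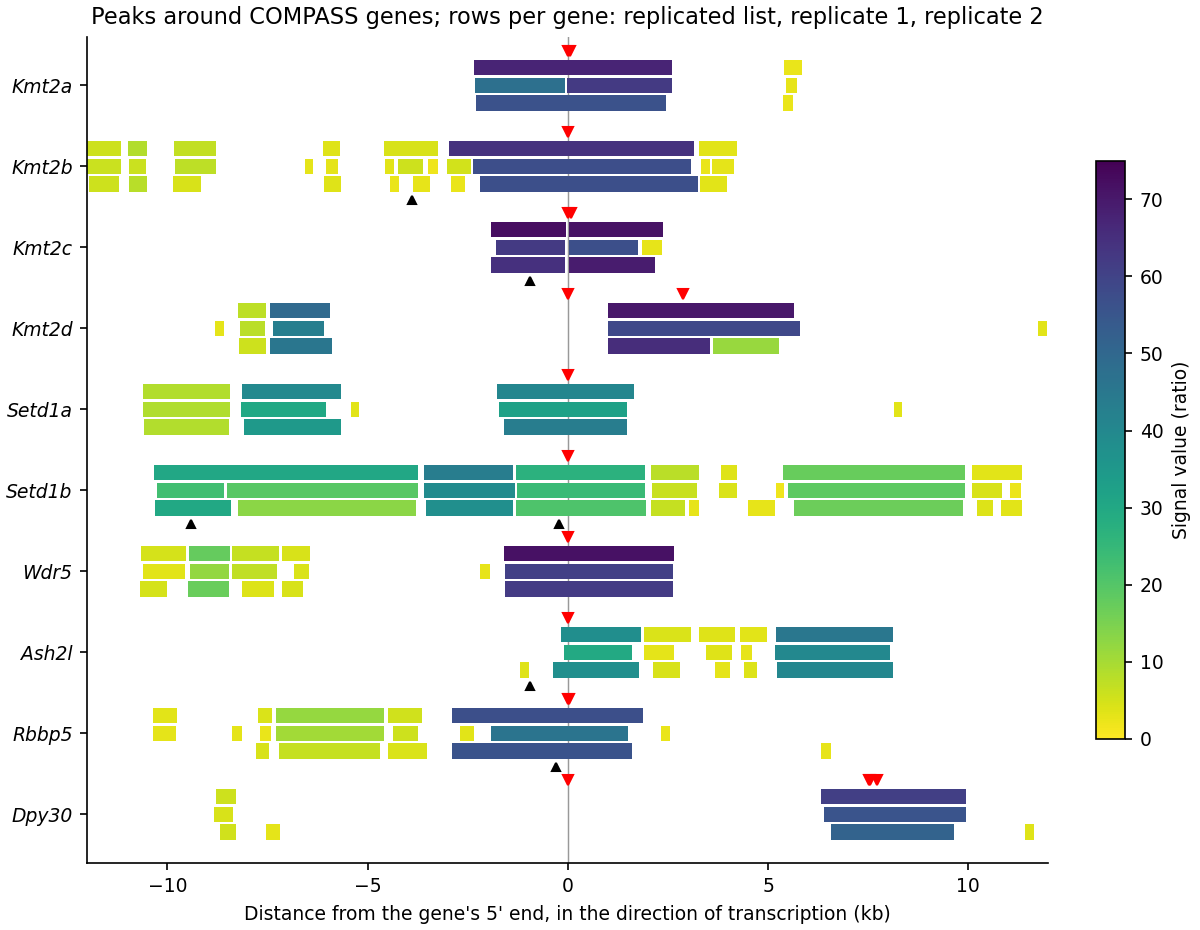
Peaks up to 12 kb from each member's 5′ end (x axis, distance in kb along the direction of transcription), with the replicated list, replicate 1 and replicate 2 as 3 bars per gene and the signal value as colour. Red triangles above mark the 5′ end and RefSeq starts, and black triangles below mark starts of neighbouring genes; the strong peaks of Kmt2d and Dpy30 lie to the right of the 5′ end, Kmt2c is split at its start, and Setd1b lies in a long chain of peaks.

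Kmt2a had 1 compact peak in the replicated list, at chr9:44878739-44883688 on the minus strand, 4950 bp wide. Its domain was 4933 bp in replicate 1 and 4747 bp in replicate 2. In replicate 1 the domain was split into a peak from −2324 to −60 bp with 47.5 and another from −8 to 2608 bp with 62.4. The gap between them lay just upstream of the 5′ end. The summit of Kmt2a in the replicated list, the position of highest enrichment, lay 469 bp downstream of the 5′ end. The summits of the replicates were 25 bp apart. Summits downstream of the start were usual: they were so placed at 85.0% of marked genes, at a median of 274 bp.

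Kmt2b had a wide domain of 8817 bp, with 8701 bp in replicate 1 and 8410 bp in replicate 2. Its main peak covered chr7:30585907-30592032 and its summit was 673 bp downstream of the start. Weak peaks on both sides extended the domain, which also held a start of Zbtb32 at −3886 bp on the same strand. On mm10 the replicates were close to each other for this gene in both signal and width, while the mm9 regions of the replicates were 11800 and 7200 bp wide with signals of 12.3 and 20.9.

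Kmt2c was the only member whose 5′ end lay between a pair of strong peaks and under neither of them. The RefSeq start 72 bp further downstream, to which the printed sequence belongs, lay under the downstream peak in all 3 lists. In the replicated list 1 peak ran from −1925 to −57 bp with a signal of 72.3, and the other from 21 to 2375 bp with 71.5. The upstream peak was the stronger in replicate 1, with 62.4 against 57.0, and the downstream peak in replicate 2, with 69.2 against 64.5. The recorded summit therefore moved by 819 bp between replicates, beside a median of 31 bp and a 95th percentile of 480 bp over all genes. The gap at the 5′ end was present in both replicates. A 5′ end between peaks was seen at 1.91% of marked genes in the replicated list, 3.13% in replicate 1 and 3.09% in replicate 2. The long noncoding RNA gene 4831440E17Rik starts 942 bp upstream on the opposite strand, under the upstream peak.

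Kmt2d had no peak over its annotated 5′ end. The peak at chr15:98868423-98873081, minus strand, began 996 bp downstream of that end and reached 5654 bp, so it entered the 1 kb window by only 5 bp. In replicate 1 it began at 1000 bp, and in replicate 2 at 1007 bp, which left the gene unmarked there at the 5′ end. The inner RefSeq start, 2872 bp downstream, was covered in all 3 lists, and there the summit lay at −669 bp, with −604 and −659 bp in the replicates. A second strong peak, of signal 49.3, lay at the far end of the gene, where its summit was 465 bp from a start of the neighbouring gene Prkag1.

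Setd1a had the narrowest domain of the 10 in the replicated list, 1 peak of 3422 bp at chr7:127775630-127779051 on the plus strand. Replicate 1 gave 3197 bp, again the narrowest, and replicate 2 gave 3079 bp, where Dpy30 was narrower with 3071 bp. Its summit lay upstream, at −566 bp, and the replicate summits were 14 bp apart. In signal and width over both replicates the genes nearest to Setd1a were Dcaf11, Leng1 and Snx10, at Euclidean distances of 0.201, 0.233 and 0.237 over 4 log2 values.

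Setd1b had the widest domain and the weakest promoter peak. The domain was 14549 bp wide, at chr5:123131710-123146258, with 21554 bp in replicate 1 and 13593 bp in replicate 2. Its 5 peaks ran from −10330 to 4218 bp, and the peak over the start, from −1293 to 1937 bp, was not the strongest. The peak from −3586 to −1358 bp had 43.6, against 27.2 at the start, and the order was the same in replicate 1 (39.2 against 24.2) and replicate 2 (38.1 against 20.9). The protein-coding gene Rhof has starts 232 and 9411 bp upstream on the opposite strand. The farther start lay under the peak from −10330 to −3742 bp, which had 30.2. The upstream peaks thus lie over Rhof, and the domain cannot be assigned to either gene alone. Of all genes marked in the replicated list, 19.8% shared a domain with the 5′ end of another protein-coding gene. A separate peak inside Setd1b, from 5364 to 9924 bp, had a signal of 17.5 in the replicated list. After Rhof, which has the same peak, the genes nearest in signal and width were Gpa33, Dusp27 and Zbtb22, at distances of 0.425, 0.525 and 0.525.

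Wdr5 had 1 peak, at chr2:27513543-27517795 on the plus strand, 4253 bp wide, with domains of 4824 bp in replicate 1 and 4198 bp in replicate 2. The summit lay 441 bp downstream and moved by 15 bp between replicates. Wdr5 had no peak elsewhere in the gene body in any of the 3 lists.

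Ash2l combined a modest promoter peak with a stronger peak inside the gene. Its promoter peak, from −159 to 1839 bp, had its summit at 431 bp, and the replicate summits were 6 bp apart. The second peak, from 5187 to 8114 bp with its summit at 7026 bp, had a signal of 45.3, against 38.2 at the promoter. It was the stronger in replicate 1 as well (39.9 against 29.6) and in replicate 2 (40.2 against 38.1). Weak peaks between them joined both into a domain of 8274 bp, with 8141 bp and 9318 bp in the replicates. The protein-coding gene Kcnu1 starts 933 bp upstream of Ash2l on the opposite strand. Only the replicate 2 domain held that start, through a weak peak from −1203 to −970 bp with 3.8. On mm9 the annotation holds 6 further starts of Ash2l, 6915 to 7617 bp from its 5′ end, all inside the region called there. Distances on the builds need not be equal, and none was converted.

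Rbbp5 had a peak of 4762 bp over its start, at chr1:132474465-132479226 on the plus strand, with the summit at 399 bp. Weaker peaks upstream, of which the strongest ran from −7295 to −4588 bp with 11.8, extended the domain to 9625 bp. The domain was 5249 bp in replicate 1 and 9396 bp in replicate 2, where the upstream peaks were joined to the promoter peak. Replicate 1 had upstream peaks in the same stretch, the strongest with 10.5, but the gap to the promoter peak was over 1 kb. The long noncoding RNA gene 6030442K20Rik starts 284 bp upstream on the opposite strand. For Rbbp5 the log2 ratio of the replicate widths, 0.84, was outside the range from −0.61 to 0.56 that held 5% to 95% of genes, and that of Setd1b, −0.67, was also outside.

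Dpy30 was marked only at its inner starts. Its peak, at chr17:74313989-74317633 on the minus strand, ran from 6311 to 9955 bp from the annotated 5′ end and was 3645 bp wide. Replicate 1 gave 3564 bp and replicate 2 gave 3071 bp. The peak covered all 3 RefSeq starts at 7511, 7550 and 7733 bp, and none was called within 1 kb of the 5′ end in any mm10 list. On mm9, which has 2 annotated Dpy30 starts, the one 7550 bp from the 5′ end was inside a region and the 5′ end was not.

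**Figure D3:**
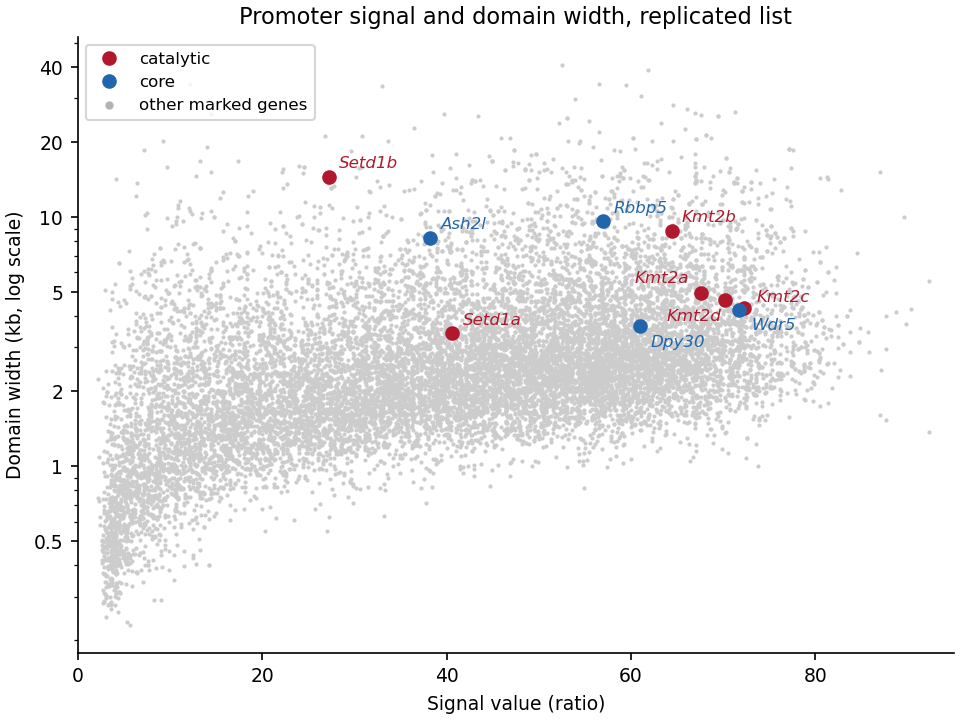
Domain width (y axis, kb, log scale) against promoter signal (x axis, linear ratio) for all marked protein-coding genes in the replicated list (grey), the 6 catalytic genes (red) and the 4 core genes (blue). Setd1b is widest, at 14549 bp with a signal of 27.2, while Kmt2c, Kmt2d, Kmt2a, Wdr5 and Dpy30 lie at high signal with domains of 3645 to 4950 bp.

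Strength and width therefore did not rank the members alike. The widest 4 domains of the replicated list were those of Setd1b, Rbbp5, Kmt2b and Ash2l. They included the lowest and the second lowest promoter signals of the 10, with Ash2l read at its 5′ end. The measures cover different stretches, since signal was read within 1 kb of the start and width over the whole joined domain. The single promoter peaks of Setd1b and Ash2l were only 3231 and 1999 bp wide, while those of Kmt2b and Rbbp5 were 6126 and 4762 bp. The contrast at Setd1b and Ash2l thus also depends on the joining. The median width was 4804.5 bp over the 6 catalytic genes and 8274 bp over the 3 core genes marked at the 5′ end, and 6263.5 bp over all 4 core genes at any start. Those medians depended on the joining of peaks: without it the core median was 4253 bp and the catalytic median 4040.5 bp. From replicate 1 alone, in which the Rbbp5 domain was shorter, the core median was 5249 bp. The widths of the groups overlapped, 3422 to 14549 bp against 3645 to 9625 bp.

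The position of the summit also varied among the members. It lay upstream of the start at Kmt2c, Setd1a and Setd1b and, at its inner start, Kmt2d, and downstream at Kmt2a and Kmt2b and at all 4 core genes. Against the 5′ end, used here for all members but Kmt2d and Dpy30, the summit lay downstream at 85.0% of marked genes in the replicated list. Against the nearest RefSeq start, a different measure, it was upstream at 21.0% of the 12100 genes with such a start. Kmt2b, Setd1b and Ash2l are not among those genes. The side was the same in both replicates for all members except Kmt2c.

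The mm9 lists, made separately by the authors, were read at each GENCODE vM1 start. Of 46 start sites of the members, 29 lay inside a region of the pooled list, 29 in replicate 1 and 30 in replicate 2. Every member had at least 1 start inside a region. Setd1b again had the widest region, 22200 bp in the pooled list, with 13600 bp in replicate 1 and 15000 bp in replicate 2. Kmt2b followed with 11800 bp, and the narrowest was that of Dpy30 with 3600 bp. The signal values ranked the members differently from mm10. Kmt2c and Kmt2a, with 35.6 and 34.6, were above 96.7% and 96.3% of marked genes there, while Kmt2b had 10.7, above 23.1%, and Wdr5 had 16.4, above 52.3%. Setd1a, with 24.7, was above 84.9% and was exceeded among the members only by Kmt2c and Kmt2a. The weaker mark of Setd1a than of Kmt2b and Wdr5 on mm10 was thus reversed in the pooled mm9 list and in the mm9 lists of both replicates, where Setd1a had 28.1 and 24.4, Kmt2b 12.3 and 20.9, and Wdr5 18.9 and 22.1. In the pooled mm9 list Kmt2d, with 18.9, was also below Setd1a, and Kmt2b was below Setd1b, with 14.8, so neither the split between the KMT2 and SETD1 families nor the last place of Setd1b was present there. What the mm9 signal is divided by is not given in the sources used, and the reason for the difference was not tested.

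Genes for subunits that join some COMPASS complexes and not others were marked as well. All 12 of these accessory genes had a peak at the 5′ end in the replicated list, beside 66.6% of all genes, with a median signal of 48.2 and values of 34.2 to 63.8. Partners of the SETD1 enzymes were strongly marked: Cxxc1, which encodes a CpG-binding protein, had 63.8, and Wdr82, whose product links the complex to RNA polymerase II, had 58.5 and a domain of 10222 bp. Bod1l had 62.5 and Bod1 47.9. These 4 values were each above those of Setd1a and Setd1b themselves. For the KMT2A and KMT2B complexes, Men1, which encodes menin, had 48.6 and Psip1, its chromatin-binding partner, 34.2. For the KMT2C and KMT2D complexes, Pagr1a had 62.5, Paxip1 49.6, the demethylase gene Kdm6a 43.4 and Ncoa6 34.2, each below both enzymes. The replicates of Kdm6a at the 5′ end were 37.4 and 21.0, and replicate 2 gave 39.1 at another RefSeq start. The host cell factor genes Hcfc1 and Hcfc2 had 47.7 and 46.4. The median domain of the 12 was 3405.5 bp.

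Of 7 other SET-domain genes tied to H3K4, 6 had a peak in the replicated list, beside 66.6% of all genes, with a median of 52.7. Kmt2e and Ash1l, large chromatin proteins, had 64.3 and 63.3, and Smyd3 had 55.9. Prdm9, the methyltransferase that places meiotic recombination hotspots, had 49.6, Setd7 had 42.1 and Smyd2 had 31.2. Smyd1, a muscle gene, had no peak on mm10 but a region near a start on mm9, and Ash1l the reverse.

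The marked promoters of the 7 members with a sequence held from 16 to 56 CG dinucleotides. In 300 bases the counts were 56 at Kmt2c, 36 at Kmt2a, 35 at Setd1a, 27 at Kmt2d, 22 at Wdr5 and 16 at Rbbp5. The inner starts of Dpy30 held 39, 34 and 30, and windows of these starts overlap. The median over 21262 RefSeq promoters of protein-coding genes was 13, and Kmt2c was above 99.8% of them. Over the 14427 of these promoters with a replicated peak within 1 kb the median was 20, with quartiles of 12 and 29, so Wdr5 and Kmt2d lay between the median and the upper quartile and Rbbp5 below the median. Of promoters with at least 16 CG, the lowest count at a marked member start, 98.9% had a peak within 1 kb in the replicated list. Of those with at most 1 CG, as at the 5′ end of Dpy30, 5.17% had one. These thresholds were set from the members after their values were seen. Among the members CG count and signal did not go together throughout: Rbbp5, with 16 CG, had a signal of 57.0, and Setd1a, with 35 CG, had 40.6.

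**Figure D4:**
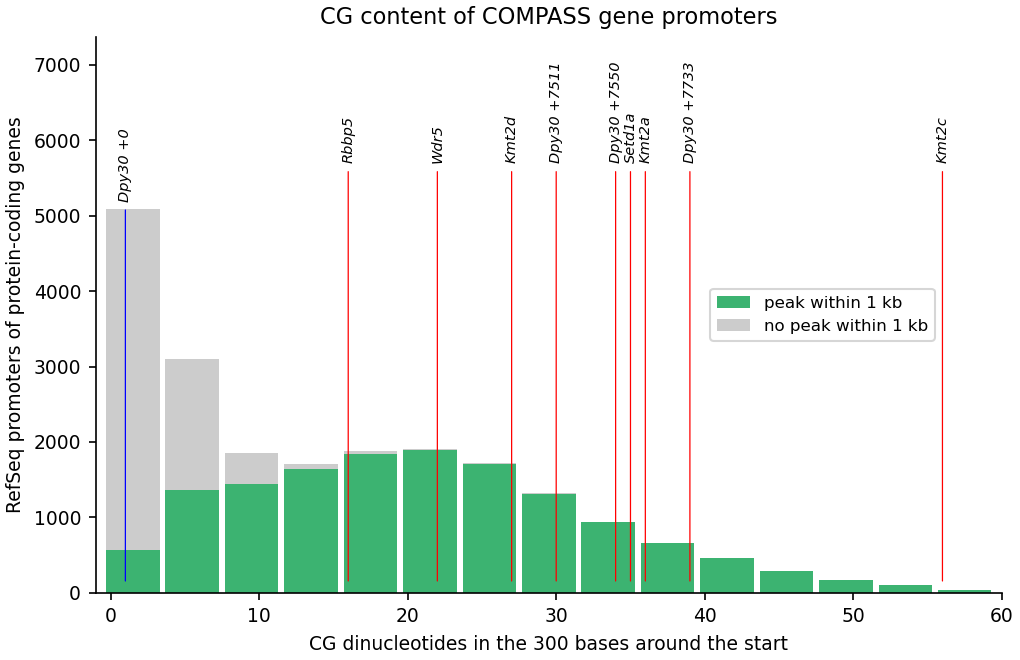
Number of RefSeq promoters (y axis) by count of CG dinucleotides in 300 bases (x axis, bins of 4), divided into those with a replicated peak within 1 kb (green) and those without (grey). Red lines show the marked starts of members and the blue line the unmarked 5′ end of Dpy30, which has 1 CG; numbers after Dpy30 are distances in bp from its 5′ end.

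A search of the same sequences on both strands gave few motif matches beyond the GC box. The GC box GGGCGG, whose own letters hold a CG, matched 12 times at Kmt2c, 5 at Kmt2a, 4 at Kmt2d, 2 at Wdr5 and 1 at the Dpy30 start at 7733 bp. It had no match at Setd1a, at Rbbp5 or at the other Dpy30 starts, and 46.2% of all promoters hold it. The CCAAT box, in 38.2% of promoters, was found once, at the unmarked 5′ end of Dpy30. No member sequence held the ETS motif CCGGAAG, the TATA box TATAAA, the NRF1 element GCATGCGC, the YY1 motif AAGATGGCG or the CRE TGACGTCA, which occur in 11.6%, 12.6%, 3.51%, 1.83% and 2.23% of promoters. Of the 300 bases shown for Kmt2c, 223 lay under a replicated peak, since the gap between its peaks falls in this window, while at Setd1a, Wdr5, Kmt2d and the inner Dpy30 start all 300 bases were covered.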

How the data were processed

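H3K4me3 ChIP-seq peak lists from 2 biological replicates of 1 group were used as deposited. The names of the aligner and peak caller were not given in the sources used here. No read counts or depths were used. On mm10 the authors deposited 4 lists (each replicate, pooled and replicated), and their signal value was taken as a ratio of ChIP over control. These deposited lists also hold an integer score, −log10 values for p and q (p-value, q-value), and a summit position. On mm9 the authors deposited 3 lists with a ratio as signal value, of which the denominator is not given, and a p-value and q-value themselves. All mm9 edges lie on a grid of 200 bp.

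The replicated mm10 list was the main one. Of 21896 protein-coding genes of the RefSeq GRCm38.p6 table, 21502 had a strand, from RefSeq promoters for 17491 and from GENCODE vM1 for 4011, and 394 were left out. Marked genes had a peak reaching to within 1 kb of the 5′ end, upstream or downstream. Its signal was that of the strongest such peak, and peaks under 1 kb apart formed its domain. RefSeq starts were added as an alternative after seeing the data. Ranks, worded as above, over, higher or wider than a share, are shares of marked genes of the same list at or below the value. They include ties and the gene itself. No coordinate was moved between builds. The members, lists and rules were chosen with earlier results of these data known, and nothing was tested for significance, since there is 1 group and genes are not replicates. SD is over 2 replicates, for which nothing says that they were separate cultures.

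Named genes were all members, 12 accessory subunit genes, 7 other SET-domain genes, cell type markers, genes starting within 1 kb of a member or in its domain, and the 3 genes nearest in log2 signal and width to the members with the widest and narrowest domain. Prkag1 was named after its values were seen. Alternatives were each replicate's list, the pooled list, peaks with q-values below 1e-05, windows of 500 bp or 2 kb, the summit within the window, no joining or joining under 3 kb, and the mm9 list. The code, in Python 3.11.15 with pandas 2.3.3, numpy 2.4.6 and matplotlib 3.10.9, was tested on simulated data.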

Additional observations from a re-analysis of the deposited data

How the results depend on the processing

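The counts of marked catalytic, core and accessory genes stayed within 1.5 times the reported ones under every alternative run. At 6 of 6, 3 of 4 and 12 of 12 genes no rise past that limit was possible. The catalytic count fell to 5 without replicate 1, with a window of 500 bp and with the summit required. The accessory count fell to 11 with that window and to 10 with the summit required. The core count was 3, or 4 on mm9 and with any RefSeq start. The catalytic median signal of 66.0 ranged from 56.0 to 58.0 when either replicate was left out, and was 64.4 with a window of 500 bp and 64.4 with the summit required in the window, both of which drop Kmt2d. The core median signal of 57.0 ranged from 46.1 to 55.7 when either replicate was left out. Leaving out a replicate means reading the other replicate's own list, where signal is lower over all marked genes. Their median was 38.4 in replicate 1 and 36.5 in replicate 2, against 43.0 in the replicated list. These differences in the signal medians thus include the change of list. The catalytic median width of 4804.5 bp was 4950 bp with a window of 500 bp and 4950 bp with the summit required, 4040.5 bp without joining, 6427.5 bp with joining under 3 kb and 5800 bp on mm9. The core median width of 8274 bp ranged from 5249 to 9318 bp when either replicate was left out and was 4253 bp without joining. Of the 38 medians recomputed, 12 moved by more than the spread between replicates and 26 did not. Some of the 26 are signal medians that could not move. The pooled mm10 list held the same promoter peaks of the members as the replicated list, and all of those peaks passed the stricter q-value limit. The 26 are therefore no measure of stability. Signal sizes were not compared between builds. No paired analysis was possible because there is 1 group. Depth is unknown, so a promoter without a peak, such as the 5′ end of Dpy30, cannot be called free of the mark.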
